A study of Mus musculus with 15 samples.

Results

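The genes described are 10 immediate early transcription regulators: Fos, Fosb, Jun, Junb, Egr1, Egr2, Nr4a1, Ier2, Atf3 and Klf6. They were chosen by symbol from the 55421 genes counted in each library, after earlier results from these libraries were known, among them the KO versus WT differences of Fos and Fosb. Their own differences are therefore given as a description, without p-values, and the calls that a fit over all genes gave them are counted beside the share of all genes called, with nothing read from them. The RNA came from donor CD4+ T cells, recovered by sorting 6 weeks after naive C57BL/6 T cells had been given to Rag2-/- recipients, which lack T and B cells of their own but keep innate cells and which develop colitis after such a transfer. Donor cells were WT (PRKAA1fl/fl, without Cre) or KO (CD4-Cre PRKAA1fl/fl), in which Prkaa1, encoding the AMPK catalytic subunit alpha1, is deleted from the double-positive thymocyte stage on. The floxed alleles were present in all donors and Cre only in KO donors, so that Cre itself and the deletion cannot be told apart. The paper reports weight loss and heavy T cell infiltration in recipients of WT cells, but stable weight and mild inflammation in recipients of KO cells. The state of the recipient and the deletion therefore cannot be told apart either. The 15 libraries comprised 4 WT spleen, 4 KO spleen, 3 WT mesenteric lymph node (mLN; replicates 1, 2 and 4) and 4 KO mLN samples. The sample labels give no age and do not say that an equal replicate number marks 1 mouse, so that p-values measure the spread between these samples.

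Immediate early genes are transcribed within minutes of a stimulus, without new protein synthesis, through factors that are already present in the cell, such as the serum response factor, ternary complex factors and CREB. In T cells they respond to the T cell receptor through calcium and MAP kinase signalling, and they respond to mechanical and enzymatic handling of tissue as well. Their mRNAs are short-lived, and their products in turn switch on or restrain a later wave of genes.

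Fos and Fosb encode partners of the Jun proteins in the AP-1 dimer. Fos lies at chr12:85473890-85477273 (GRCm38, plus strand) and Fosb at chr7:19302696-19310051 (minus strand). Jun (chr4:95049034-95052222, minus strand, a single exon) and Junb (chr8:84974484-84978718, minus strand) encode the Jun subunits, of which Junb is often a weaker activator than Jun. Egr1 and Egr2 (chr10:67535475-67542188, plus strand) encode zinc finger factors, and Egr2 restrains T cell activation. Nr4a1 (chr15:101254269-101274795, plus strand) encodes the orphan nuclear receptor Nur77, a widely used reporter of T cell receptor signalling. Ier2 (chr8:84661331-84662852, minus strand, a single exon), Klf6 (chr13:5861482-5870394, plus strand) and Atf3 (chr1:191170296-191218039, minus strand) encode a short nuclear regulator, a zinc finger factor and a stress-induced repressor.

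The RefSeq table of promoter windows (GRCm38.p6, 250 bases before to 50 bases after a transcript start) held 8 of the 10 genes, in 12 windows, and Egr1 and Ier2 are named only. On both strands, the short form of the cAMP response element, TGACG, was found in 6 of the 8 genes. By window it was found in 8 of the 12, some of which overlap, and in 20.8% of all 32851 windows. The CArG box, the serum response factor motif (CC, a run of A or T, GG), was found in Egr2 alone of the 8 genes, in 4 of its 5 windows, against 1.63% of all windows. Some of these Egr2 windows overlap and hold the same CCATATATGG. Sites more than 250 bases before a start were not searched, so that their absence from a gene is not shown. The EGR motif GCGNGGGCG was found in Fosb and Nr4a1 (2 of the 12 windows) and in 5.55% of all windows. TATAAA was found in Fos and Junb (2 of the 12 windows) and in 13.6% of all windows. No window of the 8 genes held the full element TGACGTCA (1.79% of all windows) or the AP-1 motif TGANTCA (7.81% of all windows). These letters describe the windows and are no evidence of binding. The 150 bases before the start are printed for Fos and Fosb, the genes with the widest difference between KO and WT spleen, for Junb and Nr4a1, which lay on opposite sides of WT in KO mLN, and for the Egr2 start with the CArG box CCATATATGG. Capitals mark the matches of these motifs.
Fos, chr12:85473740-85473889, strand plus: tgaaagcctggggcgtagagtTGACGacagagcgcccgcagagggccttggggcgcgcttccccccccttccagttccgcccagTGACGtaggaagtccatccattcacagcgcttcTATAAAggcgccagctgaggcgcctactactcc
Fosb, chr7:19310046-19310195, strand minus: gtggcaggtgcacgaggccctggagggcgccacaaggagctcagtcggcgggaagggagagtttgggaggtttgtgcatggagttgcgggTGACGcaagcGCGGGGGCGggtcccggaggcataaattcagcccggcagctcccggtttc
Junb, chr8:84978749-84978898, strand minus: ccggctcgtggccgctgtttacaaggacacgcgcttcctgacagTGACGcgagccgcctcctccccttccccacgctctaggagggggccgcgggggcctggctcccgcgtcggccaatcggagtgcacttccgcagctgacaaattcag
Egr2, chr10:67537719-67537868, strand plus: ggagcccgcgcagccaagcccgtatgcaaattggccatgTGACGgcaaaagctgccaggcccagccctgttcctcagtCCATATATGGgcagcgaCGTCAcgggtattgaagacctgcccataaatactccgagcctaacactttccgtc
Nr4a1, chr15:101266696-101266845, strand plus: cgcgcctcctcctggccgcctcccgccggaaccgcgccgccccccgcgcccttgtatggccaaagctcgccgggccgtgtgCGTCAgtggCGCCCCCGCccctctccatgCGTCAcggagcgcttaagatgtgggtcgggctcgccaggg
In Fos, TGACG began 129 and 66 bases before the start and TATAAA 33 bases before it. In Fosb, TGACG began 60 bases and the EGR motif 50 bases before the start. In Junb, TGACG began 106 bases before the start. The Nr4a1 stretch carried 2 of the window's 4 copies of CGTCA, the reverse complement of TGACG.

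The libraries held between 9363940 and 11283439 reads counted on genes, so that 1 count per 1000000 reads on genes (CPM) stood for 9.36 to 11.3 reads. Prkaa1 was at 46.3 to 60.9 CPM in the 7 WT libraries and at 18.4 to 32.2 CPM in the 8 KO libraries. The T cell markers Cd3d, Cd3e, Cd3g, Cd4, Trac, Lck, Cd2 and Cd5 summed to between 7197 and 8979 CPM in every library. WT spleen replicates 3 and 4 and WT mLN replicate 4 stood apart by erythroid genes, with Hbb-bs at 999, 463 and 434 CPM against 8.03 to 59.8 CPM in the other 12 libraries. Fewer cells that express a gene and less of its RNA per cell cannot be told apart in such bulk samples.

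When levels were set against exon length, as CPM per kilobase, Junb and Ier2 were the most abundant of the 10 genes in all 4 groups. In WT spleen Junb was at 388 ± 82.8 CPM per kilobase (SD, n = 4) and Ier2 at 210 ± 18.6 (SD, n = 4). Jun (57.7 ± 30.1) and Klf6 (56.1 ± 8.04) followed and did not differ beyond their spread. Egr2 (20.8 ± 11.0), Egr1 (20.4 ± 5.42) and Fos (17.3 ± 7.18) came next and overlapped within their SDs, and Nr4a1 (6.71 ± 1.70) and Fosb (1.09 ± 0.586) were lower. In KO spleen the order changed mainly through Fos, which at 62.9 ± 12.1 CPM per kilobase (SD, n = 4) stood between Jun (86.0 ± 12.5) and Klf6 (54.4 ± 3.10) rather than next to Egr1 (22.5 ± 1.35), without differing from Klf6 beyond its spread. In KO mLN Ier2 (136 ± 12.2) and Junb (135 ± 13.6) did not differ beyond their spread, and Fos (9.49 ± 6.09) again lay next to Egr1 (10.6 ± 1.55). Atf3 had at most 9 reads in any library and did not pass the filter on low counts, leaving 9 of the 10 genes in every fit.

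**Figure D1:**
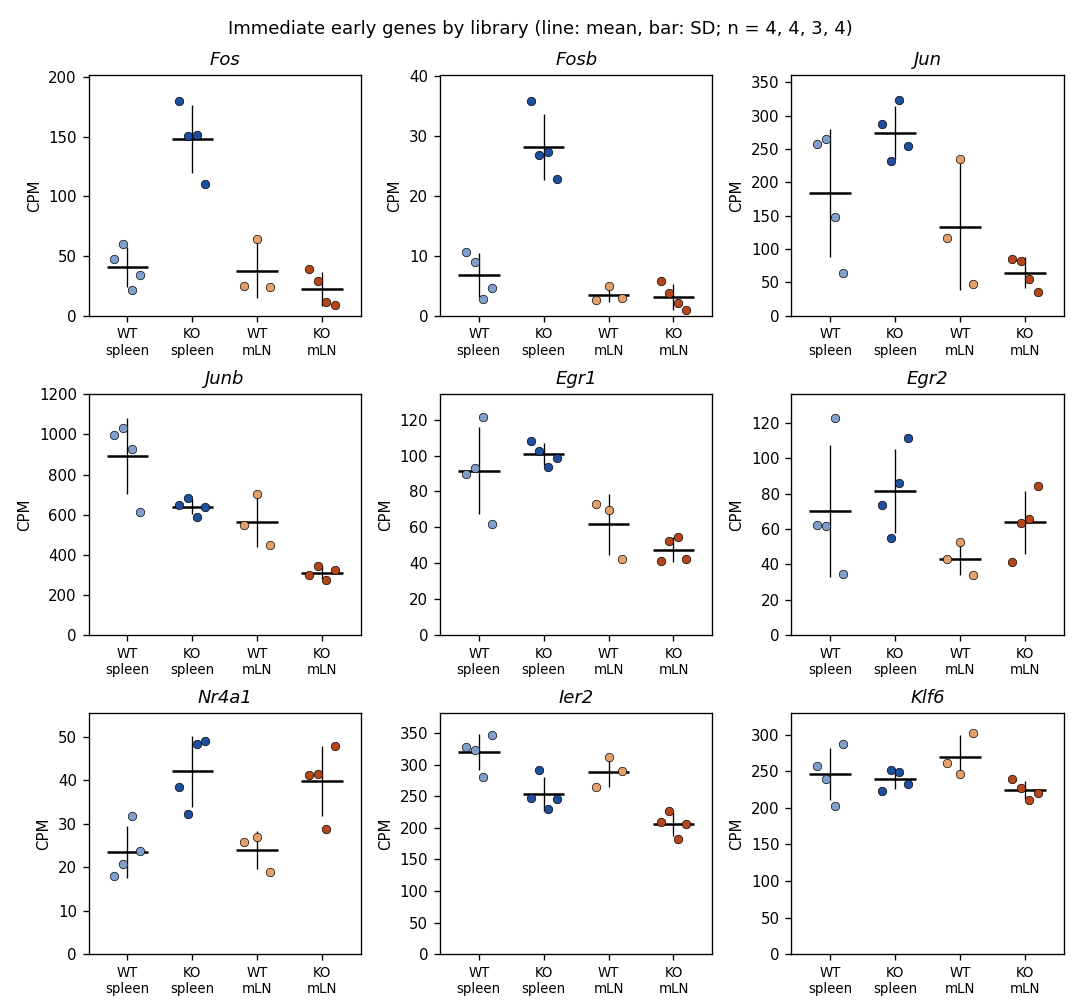
CPM of 9 genes in every library, with group means (lines) and SDs (bars). The 4 KO spleen libraries lie above all others for Fos (110 to 180 CPM) and Fosb (22.8 to 35.8 CPM), and the 4 KO mLN libraries lie below all others for Junb (273 to 345 CPM).

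The first comparison asked how T cells without AMPK alpha1 differed from WT T cells in the spleen. Fos was at 47.9, 60.1, 21.2 and 33.8 CPM in WT spleen replicates 1 to 4 and at 180, 151, 151 and 110 CPM in KO spleen replicates 1 to 4. Every KO library was above every WT library, with a log2 fold change of 1.88 ± 0.26 (SE). Fosb was at 10.7, 8.97, 2.85 and 4.61 CPM in WT spleen and at 35.8, 26.8, 27.3 and 22.8 CPM in KO spleen. Its groups likewise did not overlap, with a log2 fold change of 2.08 ± 0.33 (SE). Thus the 2 Fos-type partners were about 3.68-fold and 4.22-fold higher in KO spleen.

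For both Jun subunits the genotypes overlapped in the spleen. Jun was at 258, 265, 148 and 64.8 CPM in WT spleen and at 288, 232, 323 and 254 CPM in KO spleen, and WT replicates 1 and 2 lay within the KO range (log2 fold change 0.59 ± 0.35, SE). Junb was at 996, 1031, 928 and 614 CPM in WT spleen and at 650, 682, 590 and 640 CPM in KO spleen. Its fitted difference pointed downwards (log2 fold change -0.47 ± 0.14, SE), but WT replicate 4 lay inside the KO range.

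Among the other genes, Nr4a1 was at 17.9, 20.8, 31.8 and 23.7 CPM in WT spleen and at 38.3, 32.3, 48.4 and 49.0 CPM in KO spleen. The groups did not overlap, although WT replicate 3 and KO replicate 2 were close (log2 fold change 0.85 ± 0.20, SE). Ier2 ranged from 280 to 348 CPM in WT spleen and from 230 to 292 CPM in KO spleen (log2 fold change -0.32 ± 0.08, SE). Egr1 (0.15 ± 0.17), Egr2 (0.22 ± 0.34) and Klf6 (-0.03 ± 0.09) had log2 fold changes no larger than their standard errors. Of the 9 genes fitted, edgeR's quasi-likelihood test called Fos and Fosb at an adjusted p below 0.05, beside 1.30% of all 14254 genes tested, and 3 genes had groups that did not overlap, beside 12.0% of all genes. The genes were selected from this contrast, so that nothing is read from those counts. Leaving out KO spleen replicate 2 alone left neither gene called, and Fosb was not called without KO replicate 1, 3 or 4 or WT replicate 2 either, with Fos and Fosb log2 fold changes between 1.67 and 2.39 over all fits without 1 library.

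**Figure D2:**
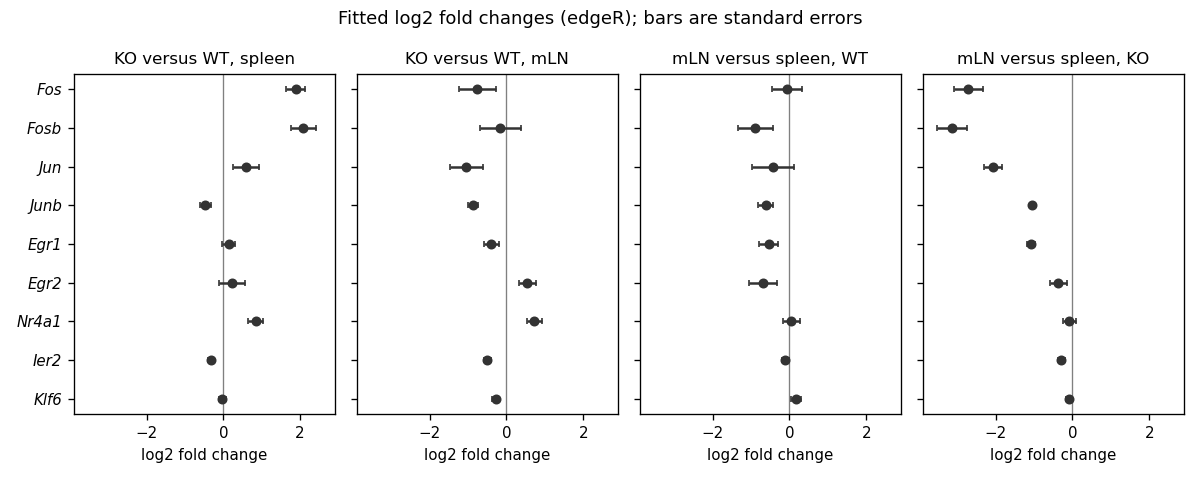
Fitted log2 fold changes of 9 genes in the 4 comparisons, with standard errors as bars and 0 as the grey line. Fos and Fosb lie at 1.88 and 2.08 in KO versus WT spleen and at -2.72 and -3.13 in KO mLN versus KO spleen.

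In the mLN the genotypes overlapped for Fos and Fosb. Fos was at 24.8, 64.5 and 24.5 CPM in WT mLN replicates 1, 2 and 4 and at 39.5, 28.7, 11.7 and 9.37 CPM in KO mLN replicates 1 to 4. The highest library was a WT one and the 2 lowest were KO, with a log2 fold change of -0.76 ± 0.49 (SE), and Fosb, at 2.59 to 5.04 CPM in WT and 0.981 to 5.86 CPM in KO, had a log2 fold change of -0.16 ± 0.54 (SE). Jun, at 117, 236 and 47.2 CPM in WT and 84.5, 82.8, 55.9 and 36.1 CPM in KO, was spread widely within both groups, which overlapped. Its log2 fold change was -1.04 ± 0.43 (SE), and between -1.45 and -0.37 over all fits without 1 library.

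Junb and Ier2 were lower in every KO library than in every WT library. Junb was at 547, 702 and 448 CPM in WT mLN and at 299, 345, 273 and 326 CPM in KO mLN, without overlap (log2 fold change -0.87 ± 0.14, SE). Ier2 was at 265, 313 and 290 CPM in WT mLN and at 210, 227, 182 and 206 CPM in KO mLN, again without overlap (-0.50 ± 0.10, SE). Klf6 was also lower without overlap, at 246 to 303 CPM in WT and 211 to 239 CPM in KO (-0.28 ± 0.10, SE).

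Nr4a1 was higher in every KO library than in every WT library of each organ. In the mLN it was at 25.7, 27.0 and 18.8 CPM in WT and at 41.3, 41.5, 28.7 and 47.7 CPM in KO, without overlap (log2 fold change 0.73 ± 0.20, SE). Egr2 (0.55 ± 0.22) and Egr1 (-0.39 ± 0.19) overlapped between the genotypes. In the whole-table fit Junb and Ier2 of the 9 genes were called, beside 0.641% of all 14359 genes tested, and 4 of the 9 had groups that did not overlap, beside 14.4% of all genes. As in the spleen, these genes were selected with this contrast known. Ier2 was called in none of the 7 fits without 1 library, nor with RLE normalization, and Junb was not called without WT mLN replicate 2 or KO mLN replicate 2, 3 or 4, while the log2 fold change of Junb stayed between -1.02 and -0.70 over all fits without 1 library.

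The second question was how each gene differed between the 2 organs. In KO cells 6 of the 9 genes were lower in every mLN library than in every spleen library. Fos was at 110 to 180 CPM in KO spleen and 9.37 to 39.5 CPM in KO mLN, a log2 fold change of -2.72 ± 0.37 (SE), and Fosb differed by -3.13 ± 0.38 (SE). Jun, at 232 to 323 CPM in spleen and 36.1 to 84.5 CPM in mLN, differed by -2.08 ± 0.23 (SE). Junb (-1.04 ± 0.08), Egr1 (-1.08 ± 0.10) and Ier2 (-0.29 ± 0.09) were lower by smaller steps. Egr2 (-0.36 ± 0.23), Nr4a1 (-0.08 ± 0.18) and Klf6 (-0.09 ± 0.07) overlapped between the organs. The 6 non-overlapping genes stood beside 28.7% of all genes, and the same 6 were called, beside 25.3% of all 14240 genes tested. These libraries are among those from which the genes were chosen.

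In WT cells the groups of all 9 genes overlapped between the organs, beside 31.5% of all genes whose groups did not. Fos was at 21.2 to 60.1 CPM in WT spleen and 24.5 to 64.5 CPM in WT mLN (log2 fold change -0.07 ± 0.40, SE), and Jun at 64.8 to 265 CPM and 47.2 to 236 CPM (-0.43 ± 0.55, SE). Junb (-0.62 ± 0.20), Fosb (-0.89 ± 0.46), Egr1 (-0.54 ± 0.24) and Egr2 (-0.68 ± 0.37) pointed to lower values in mLN, and Nr4a1 (0.05 ± 0.21), Ier2 (-0.11 ± 0.09) and Klf6 (0.18 ± 0.12) were near 0. None of the 9 genes was called by edgeR, beside 20.5% of all 14515 genes tested. Of the 9, 1 had an unadjusted p below 0.05, beside 5028 of all 14515 genes. DESeq2 called 1, Junb, and its count over all genes in this comparison is not given here. Same-numbered WT libraries of the 2 organs deviated together, and with the replicate number as a block, which leaves out WT spleen replicate 3, Jun, Fosb, Junb and Egr1 were called, all lower in mLN.

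**Figure D3:**
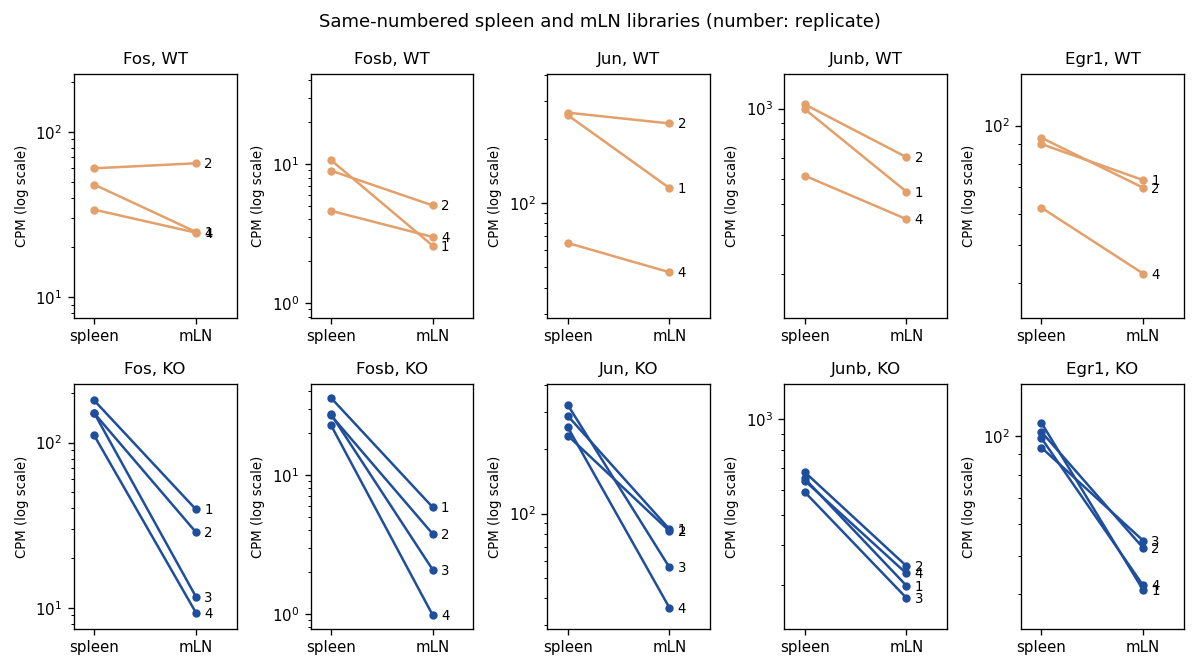
CPM (log scale) of 5 genes in same-numbered spleen and mLN libraries of WT (upper row, 3 pairs) and KO (lower row, 4 pairs), with the replicate number at the right. All 4 KO lines fall for each gene, to between 0.0774 and 0.219 of the spleen value for Fos, whereas 1 of the 3 WT lines rises for Fos.

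Within the same-numbered libraries Jun was lower in mLN in 3 of 3 WT pairs, by a ratio of 0.455 to 0.89, and in 4 of 4 KO pairs, by 0.142 to 0.356. Junb was likewise lower in 3 of 3 WT pairs (0.549 to 0.729) and in 4 of 4 KO pairs (0.459 to 0.51). For Klf6 the ratio lay between 1.02 and 1.06 in the 3 WT pairs and between 0.847 and 1.08 in the 4 KO pairs. WT replicate 4 had the lowest Jun of its group in both organs (64.8 and 47.2 CPM), and WT replicate 2 the highest (265 and 236 CPM).

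Whether the genotype difference itself differed between the organs was addressed with the interaction term over all 15 libraries. The KO versus WT log2 fold change in mLN minus that in spleen was -2.64 ± 0.60 (SE) for Fos, -2.23 ± 0.64 for Fosb and -1.64 ± 0.62 for Jun. It was -0.12 ± 0.30 for Nr4a1, -0.18 ± 0.13 for Ier2 and -0.41 ± 0.21 for Junb. In edgeR's quasi-likelihood test no gene of the 15438 tested had an adjusted p below 0.05, 652 had an unadjusted p below 0.05, and with the replicate block 3 genes were called, none of them among these 9. The values are therefore a description, and a difference between the organs is not shown for any of the genes.

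The genes also differed in how much they varied among libraries of 1 group. The pooled SD of log2 CPM within groups was 0.77 for Jun, 0.73 for Fosb and 0.71 for Fos, larger than in 91.1%, 89.8% and 89.0% of 15438 genes, whose median was 0.25. It was 0.53 for Egr2, 0.32 for Nr4a1, 0.31 for Egr1 and 0.24 for Junb. Klf6 (0.14) and Ier2 (0.12) were among the steadier genes of the libraries, with smaller SDs in only 21.7% and 14.2% of genes.

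Deviations from the group means were averaged over the 9 genes, and the genes whose deviations followed that average most closely over the 15 libraries were Mapk7 (Pearson r = 0.923), Junos (0.92), Gstm5 (0.917), Ppat (0.899), Pold3 (0.898), Dvl2 (0.89), Hist1h2bm (0.884), Midn (0.874), Gm26887 (0.871) and Rtcb (0.868). Each of the 9 genes was part of the average, which was not scaled by spread, so that genes with wide SDs such as Jun weighed more. The r of the 9 genes with it is therefore partly built in, and nothing is read from its order. It was 0.962 for Jun and between 0.503 and 0.793 for Fos, Junb, Fosb and Egr1. Egr2 (0.22), Ier2 (0.176), Nr4a1 (0.172) and Klf6 (-0.332) had lower values. The values are a description over libraries that differ in depth and in markers of other cells, and 1 of the 10 closest genes, Junos, was also among the 10 closest when group means were not subtracted. Mapk7 encodes ERK5, a MAP kinase. Gstm5, Hist1h2bm and Gm26887 had fewer than 5 reads in the lowest library. Junos overlaps an exon of Jun on the opposite strand and amounted to 12.1% to 17.9% of the Jun count in every library. Reads of the 2 genes may not be separable with a kit that does not mark strand. Junb overlaps an exon of Prdx2 in the same way.

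Of 22 other immediate early transcription regulators 18 were tested. In KO versus WT spleen 1 was called, beside 1.30% of all genes. That was the growth regulator Myc, which fell (log2 fold change -0.98, edgeR adjusted p = 0.0453). The list's median was 0.16 against 0.00 for all genes, and Egr3, a relative of Egr2, was at 0.47 ± 0.17 (adjusted p = 0.163). None of the 18 was called by edgeR in KO versus WT mLN, beside 0.641% of all genes. There, 6 had an unadjusted p below 0.05, beside 2253 of all 14359 genes, and DESeq2 called 2, beside 561 genes in all. Between the organs in KO cells 7 of 18 were called, beside 25.3% of all genes, with Egr3 (-0.86, adjusted p = 0.029), Fosl2 (-1.39, adjusted p = 0.00206), Nr4a2 and Per1 lower in mLN and Myc (0.98, adjusted p = 0.00237), Klf2 and Batf higher. In WT, 6 of 18 were called between organs, beside 20.5% of all genes, with Klf10 and Per1 lower in mLN and Ier5, Ier3 (1.10, adjusted p = 0.0261), Myc and Klf2 higher. The WT and KO organ comparisons share no library, but genotype and organ comparisons share their groups.

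Feedback and mRNA decay genes end the immediate early response, through phosphatases such as Dusp1 and mRNA-destabilising proteins such as Zfp36. All 22 were tested. In KO versus WT spleen Zfp36l1 rose (0.37, edgeR adjusted p = 0.0391) and the phosphatase gene Dusp2 fell (-1.04, adjusted p = 0.0485), with a list median of -0.06. In KO versus WT mLN, edgeR called 3 of 22, all lower in KO: Dusp2 (-1.33, adjusted p = 0.0422), the NF-kappaB inhibitor Tnfaip3 (-0.75, adjusted p = 0.0326) and Zfp36l2 (-1.56, adjusted p = 0.0326). Zfp36l1 was at 0.35 there, higher in KO without overlap but not called (adjusted p = 0.0929). The list median in mLN was -0.41. By edgeR 1.30% of all genes were called in spleen and 0.641% in mLN. An unadjusted p below 0.05 was found for 11 of the 22 in spleen, beside 2924 of all 14254 genes. In mLN it was found for 16, beside 2253 of all 14359 genes. DESeq2 called 8 of the list in each organ, beside 799 genes in all in spleen and 561 in mLN. Dusp1 was at 45.9, 146 and 63.0 CPM in WT mLN and at 27.0, 36.5, 26.2 and 21.6 CPM in KO mLN (-1.61, adjusted p = 0.0634). Zfp36 had log2 fold changes of 0.26 in spleen (adjusted p = 0.222) and -0.25 in mLN (adjusted p = 0.35). Between the organs in KO cells 9 of 22 were called lower in mLN and Rgs1 alone was called higher, beside 25.3% of all genes called. The list median was -0.24 against 0.01 for all genes. Dusp1 (-1.40, adjusted p = 0.00035), Ppp1r15a (-1.36, adjusted p = 0.000861), Sik1 (-1.73) and the EGR corepressor gene Nab2 (-1.20, adjusted p = 1.08e-05) were among those that fell. In WT cells, beside 20.5% of all genes called, 3 of 22 were called lower in mLN, Sik1 (-1.95, adjusted p = 0.00197), Nab2 and Zfp36l1, while Rgs1 and Spry1 were called higher.

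The kinases and factors that act upstream of the immediate early genes were not called in either genotype comparison, with 0 of 25 in spleen and 0 of 25 in mLN by edgeR. Over all genes edgeR called 1.30% in spleen and 0.641% in mLN. An unadjusted p below 0.05 was found for 4 of the 25 in spleen, beside 2924 of all 14254 genes. In mLN it was found for 2, beside 2253 of all 14359 genes. DESeq2 called 2 of the list in spleen, beside 799 genes in all, and 1 in mLN, beside 561. Nfatc2, a calcium-regulated factor of T cell activation, was at 0.27 in spleen (edgeR adjusted p = 0.13) and 0.40 in mLN (adjusted p = 0.0792). Between organs 6 of 25 were called lower and 1 higher in WT mLN, beside 20.5% of all genes called. In KO mLN 5 of 25 were called lower and 1 higher, beside 25.3%. Both counts were near the share over all genes. Nfatc2 fell in mLN of both WT (-1.37, adjusted p = 0.000153) and KO (-1.26, adjusted p = 1.08e-06), and so did Nfatc1, Mrtfa, Elk1 and Rps6ka1.

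Of 15 T cell activation genes 3 were called in KO versus WT spleen, beside 1.30% of all genes. In KO versus WT spleen Nfkbid (0.77, edgeR adjusted p = 0.0123) and Cd40lg (0.50, adjusted p = 0.0444) rose and Il2ra, the interleukin-2 receptor alpha chain, fell (-1.16, adjusted p = 0.0123). The early activation marker Cd69 was at 349, 409, 324 and 485 CPM in WT spleen and at 628, 552, 520 and 514 CPM in KO spleen, without overlap (0.52, adjusted p = 0.0566). None of the 15 was called in KO versus WT mLN by edgeR, beside 0.641% of all genes, or by DESeq2, beside 561 genes in all. In that comparison 5 had an unadjusted p below 0.05, beside 2253 of all 14359 genes. There, Cd69 was at -0.69 (adjusted p = 0.186) and Il2ra at -1.29 (adjusted p = 0.139). In KO cells Cd69 fell from spleen to mLN (-0.96, adjusted p = 0.0014), together with Nfkbid, Tbx21 and Ifng, while Icos (1.28) and Tnfrsf4 rose, 6 of 15 beside 25.3% of all genes. In WT cells Icos (1.21, adjusted p = 0.000797), Tnfrsf4 and Il2ra were called higher in mLN than in spleen and none was called lower, 3 of 15 beside 20.5% of all genes.

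Heat shock genes and markers of other cells were read as signs of handling and of cell composition, and their part in the values of Fos and Fosb was not tested. Hspa1a, the inducible HSP70 gene, was at 0.1 to 0.523 CPM in WT spleen and at 2.94, 3.49, 56.3 and 33.9 CPM in KO spleen replicates 1 to 4, and at 10.8, 9.18, 16.2 and 22.6 CPM in KO mLN against 4.62, 0 and 2.99 CPM in WT mLN. Hspa1a and Hspa1b are near-identical copies, so that their counts are uncertain. Without KO spleen replicates 3 and 4, which had the highest Hspa1a, the log2 fold change of Fos in spleen was 2.02, and neither Fos nor Fosb was called. Of 12 heat shock genes tested in spleen edgeR called 2, both higher in KO, Hspa1a and Dnaja1 (0.96, edgeR adjusted p = 0.0444), beside 1.30% of all genes. An unadjusted p below 0.05 was found for 7 of the 12, beside 2924 of all 14254 genes. DESeq2 called 5 of the list and 799 genes in all. The list's median log2 fold change was 0.48 against -0.004 for all genes. Of 13 tested in mLN none was called by edgeR, beside 0.641% of all genes. An unadjusted p below 0.05 was found for 8 of the 13, all higher in KO, beside 2253 of all 14359 genes. DESeq2 called 3 of the list and 561 genes in all. Hspa1b, with 0 to 4 reads in WT mLN, was at 3.97 without overlap (edgeR adjusted p = 0.05). The list's median in mLN was 0.36 against -0.004 for all genes. Between organs Hspe1, Hsp90aa1 (1.05, adjusted p = 0.00222), Hsp90ab1, Hspa8 and Hspd1 rose in WT mLN, 5 of 11 tested beside 20.5% of all genes. In KO, Hsp90aa1 alone of 13 was called, higher in mLN, beside 25.3% of all genes. The other genes called in WT also had positive log2 fold changes in KO without being called. These were Hspa8 (0.65, adjusted p = 0.0601), Hsp90ab1 (0.61, adjusted p = 0.0825), Hspe1 (0.36, adjusted p = 0.2) and Hspd1 (0.32, adjusted p = 0.116). The list's median in KO was 0.02 against 0.01 for all genes.

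The summed markers of neutrophils were at 184 to 703 CPM in the 8 spleen libraries and at 17.5 to 89.9 CPM in the 7 mLN libraries, and those of macrophages and monocytes were highest in KO spleen replicate 3, at 382 CPM. The 6 erythroid markers summed to 82.0 to 1514 CPM in WT spleen and to 35.6 to 87.5 CPM in KO spleen. WT spleen replicates 3 and 4 also had the lowest Fos, Fosb and Jun of WT spleen. Without them the log2 fold change in spleen was 1.48 for Fos, 1.54 for Fosb and, instead of 0.59, 0.09 for Jun. The CD8 markers Cd8a and Cd8b1 summed to 18.9 to 28.2 CPM in KO mLN and to 1.61 to 11.6 CPM in the other groups. The 5 markers of NK and innate lymphoid cells summed to 64.0 to 89.1 CPM in WT spleen and 110 to 119 CPM in KO spleen, and to 50.2 to 69.7 CPM in WT mLN and 91.1 to 128 CPM in KO mLN. They include Eomes, which T cells express as well, and the share of each marker in the sum is not given here. The immunoglobulin gene Ighm was at 37.0 to 124 CPM in KO spleen and 200 to 294 CPM in KO mLN, without overlap, and at 47.8 to 177 CPM in WT spleen and 171, 543 and 298 CPM in WT mLN replicates 1, 2 and 4. Dendritic and stromal markers summed to 119 to 176 and 68.0 to 135 CPM over all libraries. The part of these cells in the levels of the 10 genes was not tested.

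**Figure D4:**
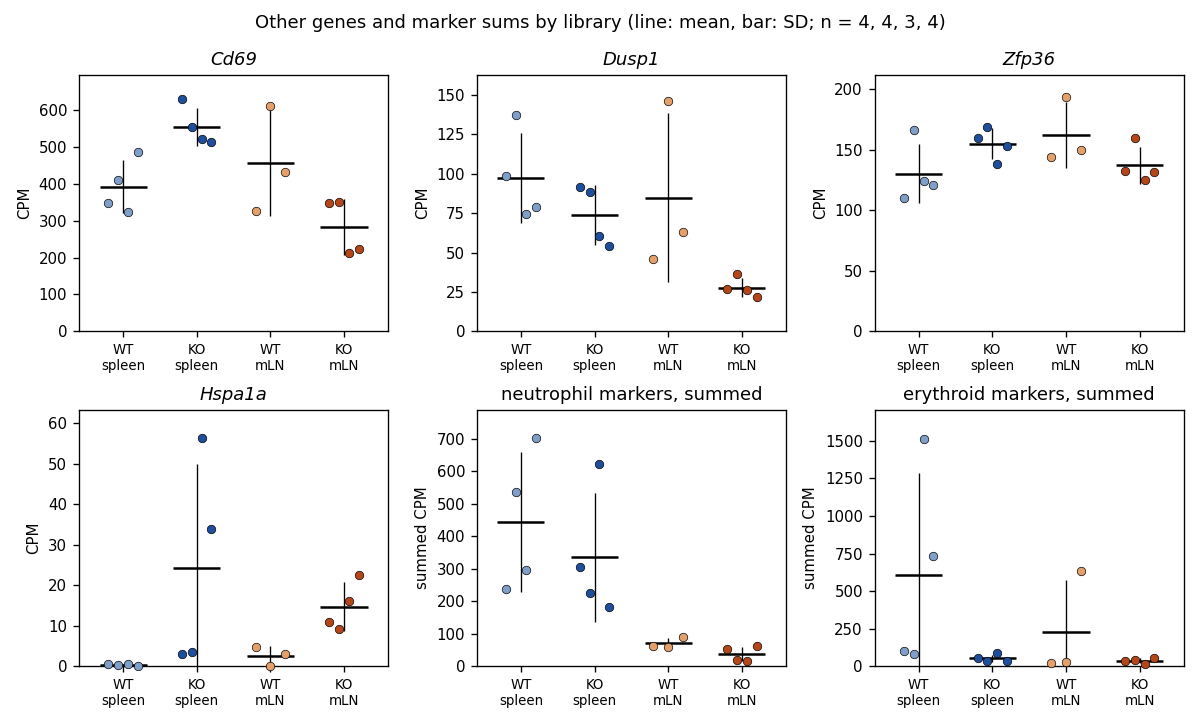
CPM of Cd69, Dusp1, Zfp36 and Hspa1a and summed CPM of neutrophil and erythroid markers in every library, with group means (lines) and SDs (bars, not drawn below 0). Hspa1a is highest in KO spleen replicates 3 and 4 (56.3 and 33.9 CPM), and erythroid markers in WT spleen replicate 3 (1514 CPM).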

How the data were processed

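RNA was read from 15 samples of sorted donor CD4+ T cells. Per the labels and methods, the authors made libraries with a low-input kit that does not mark strand, aligned single-end reads with STAR (2.6.1a, GRCm38, GENCODE M23) and deposited the raw counts of reads per gene as STAR gives them. The strand setting of the counting is not given in the sources used here. Counts were scaled to CPM of the reads on genes. Unassigned read classes were left out; reads on no gene made up 58.4% to 63.4% of uniquely mapped reads. Genes were named through GENCODE M21, in which 55240 of 55421 identifiers were found.

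Counts were fitted per comparison with edgeR (4.0.16; TMM, filterByExpr, quasi-likelihood test) and adjusted by Benjamini-Hochberg over all genes tested, with a limit of 0.05. The fit was tested on simulated data. DESeq2 (1.42.0), RLE normalization, other filters, a joint fit, a replicate block and fits without 1 library were the alternatives. The 10 genes, the lists and the tests were chosen with earlier results of these data known. Of the lists, the genes named are up to 6 called ones per comparison by smallest p, plus Cd69, Il2ra, Dusp1, Zfp36, Hspa1a and Hspa1b, and Nr4a2, outside that rule, was named after its values were seen. Deviations from group means correlated between same-numbered organs at 0.243 to 0.291 in WT (3 pairs), where the numbers were taken to pair samples, though the labels do not say so. In KO they correlated at 0.0258 to 0.26 (4 pairs), and the numbers were not taken to pair samples, although the highest value lay within the WT range. Only the fits with the replicate block use any pairing. Same-numbered samples of the 2 genotypes correlated at -0.21 to 0.146 in spleen (4 pairs) and at -0.0531 to 0.0034 in mLN (3 pairs) and were not paired. Of the B cell markers only Ighm is reported here.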

Additional observations from a re-analysis of the deposited data

How the results depend on the processing

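Over the alternatives the log2 fold changes of the 9 genes stayed within 1 pooled SD of the value given, except Nr4a1 between WT organs, at 0.48 instead of 0.05 without the libraries with high erythroid genes, and none that was called changed sign. That SD was wide for Jun, whose log2 fold change in KO versus WT spleen was 0.09 instead of 0.59 without the libraries with high erythroid genes. The number of genes called, over all genes and among the 9, depended more on the fit. In KO versus WT spleen, 185 genes were called and 2 of the 9; DESeq2 gave 799 and 5, no filter on low counts 1422 and 6, a joint fit of the 15 samples 85 and 1, the limit of an absolute log2 fold change above 1 gave 64 genes, and the replicate block 17 genes. In KO versus WT mLN, 92 genes and 2 of the 9 were called; DESeq2 gave 561 genes, no filter 913 and 6, the joint fit 500 genes, the fold limit 47 and 0, the replicate block 1 and 0, and RLE normalization 1 of the 9. In WT, 2980 genes and 0 of the 9 differed between organs. The 9 gave 1 with DESeq2, 1 with at least 10 counts in every sample, 1 with the joint fit and 5 with no filter. They gave 4 with the replicate block, which takes same-numbered WT samples as pairs, and the fold limit gave 723 genes. In KO, 3602 genes differed between organs and 763 passed the fold limit. The interaction gave 0 genes, and 3 with the replicate block, where samples share only a number in KO. Leaving out 1 library gave 12 to 324 genes and 0 to 4 of the 9 in KO versus WT spleen, 4 to 117 and 0 to 1 in KO versus WT mLN, 1816 to 2780 and 0 to 2 between WT organs, and 2631 to 3669 and 5 to 6 between KO organs. The cause was not tested. Chosen after seeing the data, leaving out WT spleen replicates 3 and 4, with high erythroid genes, gave 119 genes and 4 of the 9 in KO versus WT spleen, and leaving out also WT mLN replicate 4 gave 1472 and 1 between WT organs. Leaving out KO spleen replicates 3 and 4, with high Hspa1a, gave 3 genes and 0 of the 9 in KO versus WT spleen, and 1982 genes between KO organs. Of the 10 genes with the closest pattern, 1 remained without subtracting group means. At this depth Atf3, with at most 9 reads, could not be fitted.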
